A study of Rattus norvegicus with 15 samples.

Results

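Aldh3a1 and 9 antioxidant enzyme genes (Hmox1, Nqo1, Gclc, Gclm, Txnrd1, Srxn1, Gpx1, Sod1 and Sod2) were followed through RNA-seq of primary rat chondrocytes from the temporomandibular joint, the jaw joint. They were chosen by gene name. Each name matched a single row of the count table, giving 10 rows of 33717. All 10 passed the filter on low counts, which 14147 loci passed. They were picked with earlier results of these data known, and which values led to each name is not recorded. Aldh3a1 is not among the usual antioxidant genes, so its values are given below as a description with no test. Where its calls are counted among the 10, nothing is read from them. The tests given for the others are not independent of that choice.

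There were 5 groups of 3 libraries. The first carried an siRNA against Ddx5, a short RNA that lowers the matching transcript, together with mechanical stress. The second had the Ddx5 siRNA alone and the third mechanical stress alone. The fourth had a control siRNA. The fifth is labelled only as a control and was taken to be without siRNA. A control siRNA with stress was not analysed here, so the Ddx5 siRNA under stress was set against stress without any siRNA. Nothing in the labels ties the libraries of a group to separate cultures or animals. The p-values therefore describe only how these libraries vary, which may be technical variation.

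Cells remove reactive oxygen in steps. Superoxide dismutases (Sod1 in the cytosol, Sod2 in mitochondria) turn superoxide into hydrogen peroxide, and glutathione peroxidases such as Gpx1 and the peroxiredoxins reduce the peroxide with glutathione or thioredoxin. Gclc and Gclm are the catalytic and modifier subunits of glutamate-cysteine ligase, which makes the first and limiting step of glutathione synthesis. Txnrd1 encodes the cytosolic reductase that recycles thioredoxin, and Srxn1 encodes sulfiredoxin, which repairs overoxidised peroxiredoxins. Hmox1 encodes haem oxygenase, which breaks down free haem, and Nqo1 a quinone reductase. Many of these genes are switched on by the transcription factor NRF2 (gene Nfe2l2) at antioxidant response elements (ARE) in their promoters, and KEAP1 holds NRF2 down in unstressed cells. Aldh3a1 encodes an aldehyde dehydrogenase that clears lipid-derived aldehydes. It is abundant in the cornea and, in rat liver, is a classic gene induced through the aryl hydrocarbon receptor (AHR), a ligand-activated transcription factor that binds xenobiotic response elements (XRE). Ahr encodes the receptor, Ahrr its repressor, and Cyp1a1 and Cyp1b1 are cytochrome P450 enzymes that it induces.

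Promoter windows are shown here for genes with a match to the short sequence of one of these response elements. They are given since the values below are grouped by NRF2 and AHR targets. Whether any match is functional was not tested, and elements farther from the start were not searched for. Sequences are the 250 bases before the annotated start, from RefSeq (build GRCr8), written 5′ to 3′ on the gene's strand. Of the 10 genes, 8 had a window in the RefSeq table, with 9 windows in all; Aldh3a1 and Hmox1 had none and were not searched. The search used the ARE core TGACNNNGC and the XRE TNGCGTG, each on both strands, and the match is in capitals. The ARE core was found for 3 of the 8 genes, for Txnrd1 in 1 of its 2 windows, and in 10.1% of all 33469 windows. In each of the 3 it lies on the opposite strand, so the capitals show its reverse complement. The first base in capitals lies 172 bases upstream of the start for Gclm, 78 for Txnrd1 and 35 for Sod2.
Gclm, chr2:213031885-213032134, plus strand: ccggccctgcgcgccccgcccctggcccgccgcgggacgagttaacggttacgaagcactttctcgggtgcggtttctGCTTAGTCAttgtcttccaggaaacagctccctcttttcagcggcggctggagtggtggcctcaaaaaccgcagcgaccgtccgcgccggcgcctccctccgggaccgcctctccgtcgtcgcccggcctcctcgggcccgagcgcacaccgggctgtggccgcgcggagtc
Txnrd1, chr7:22755905-22756154, minus strand: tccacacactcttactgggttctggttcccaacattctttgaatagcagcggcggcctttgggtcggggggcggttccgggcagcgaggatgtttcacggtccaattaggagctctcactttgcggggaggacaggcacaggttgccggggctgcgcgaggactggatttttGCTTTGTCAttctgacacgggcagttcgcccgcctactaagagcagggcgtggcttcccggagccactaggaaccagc
Sod2, chr1:50050169-50050418, minus strand: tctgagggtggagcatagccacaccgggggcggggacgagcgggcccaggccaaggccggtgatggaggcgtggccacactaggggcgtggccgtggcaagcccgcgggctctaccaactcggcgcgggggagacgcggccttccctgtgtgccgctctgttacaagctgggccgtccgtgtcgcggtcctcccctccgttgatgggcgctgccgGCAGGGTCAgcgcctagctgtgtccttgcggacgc

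The XRE was found in none of the 9 windows of the 8 genes searched, which do not include Aldh3a1, and in 4.09% of all windows. It was found, on the gene's own strand, for Cyp1b1 (22 bases upstream) and Ahrr (59 bases upstream), whose levels are set beside those of Aldh3a1 below. The windows of Ahr and of Tiparp, a further AHR target, were searched and held no match. Cyp1a1 had no window and was not searched.
Cyp1b1, chr6:21094315-21094564, plus strand: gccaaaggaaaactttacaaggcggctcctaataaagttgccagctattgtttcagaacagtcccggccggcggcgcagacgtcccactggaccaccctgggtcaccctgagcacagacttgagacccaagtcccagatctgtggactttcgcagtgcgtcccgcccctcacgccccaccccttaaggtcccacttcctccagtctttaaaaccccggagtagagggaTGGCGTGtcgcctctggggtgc
Ahrr, chr1:30821969-30822218, plus strand: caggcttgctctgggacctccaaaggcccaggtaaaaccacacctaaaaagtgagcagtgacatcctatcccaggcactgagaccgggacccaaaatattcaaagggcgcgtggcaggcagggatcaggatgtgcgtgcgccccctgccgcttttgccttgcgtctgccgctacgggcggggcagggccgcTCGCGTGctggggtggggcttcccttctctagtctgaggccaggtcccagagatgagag

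Library totals ran from 14309005 to 16219775 counts. Ddx5 was lower with its siRNA, at 164, 240.6 and 193.9 CPM (counts scaled to library size by TMM) with stress and 220.6, 251.7 and 206.8 CPM without it, against 360.3, 416.1 and 418.1 CPM with stress alone, 397.2, 398.3 and 360 CPM with the control siRNA and 545.4, 510.6 and 485.1 CPM in control. The stress and control siRNA libraries also lay below every control library. Replicate 1 of Ddx5 siRNA plus stress and replicate 1 of Ddx5 siRNA stood apart from the other libraries of their groups. Their counts differed from those of replicates 2 and 3 with a chi-square per degree of freedom of 49 to 65.8, against 7.84 and 9.53 between replicates 2 and 3. Of 15 chondrocyte markers, Acan averaged 213 CPM and Col11a1 1880 CPM over all libraries, but Col2a1 averaged 2.23 CPM and Matn1 had counts in 2 libraries. Among the fibroblast markers, Col1a1 averaged 48200 CPM, but Dcn averaged 5.16 CPM and Lum 4.66 CPM. The cells were bulk samples, in which fewer cells of a type and less RNA per cell cannot be told apart.

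By length-scaled level, Nqo1 led the 10 genes with a median of 1471 FPKM over the 15 libraries. Sod1 (252.5 FPKM) and Gpx1 (239.8 FPKM) came next, ahead of Txnrd1 (93.05), Sod2 (81.77) and Hmox1 (79.68). Gclc had a median of 39.63 FPKM, Srxn1 22.57, Aldh3a1 20.78 and Gclm 10.82 FPKM. As a ratio of highest to lowest library, Hmox1 spanned the widest range, from 20.69 to 830.4 FPKM, and Gclm the narrowest, from 9.511 to 14.96 FPKM.

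**Figure D1:**
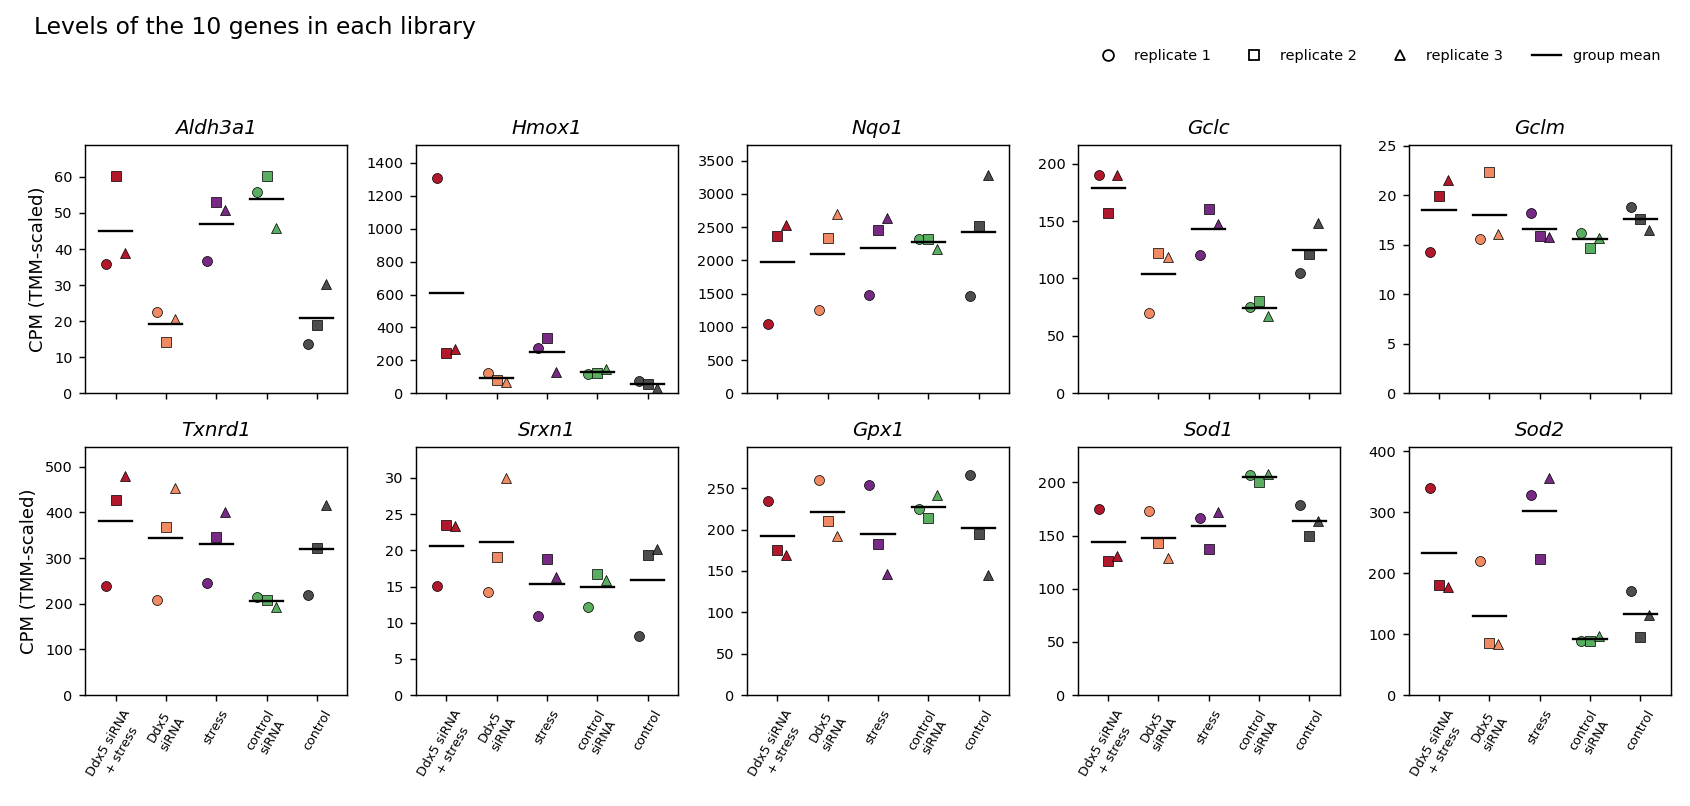
Level of each of the 10 genes in every library, in CPM scaled by TMM (y axis, from 0) for the 5 groups (x axis); symbols give the replicate number and bars the mean of 3 libraries. Aldh3a1 stands high in Ddx5 siRNA plus stress, stress and control siRNA and low in Ddx5 siRNA and control, while Nqo1 and Txnrd1 split by replicate more than by group.

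Aldh3a1 (ENSRNOG00000002331, chromosome 10, 47490153 to 47499876, plus strand) fell into a high and a low set of groups. Gene coordinates here and below are those of the deposited table, whose build is not stated. It stood at 35.98, 60.17 and 39.01 CPM with Ddx5 siRNA plus stress, against 22.48, 14.09 and 20.69 CPM with Ddx5 siRNA. Stress alone gave 36.68, 53.06 and 50.84 CPM, and the control siRNA 55.84, 60.19 and 45.77 CPM, against 13.66, 18.91 and 30.18 CPM in control. Every library of Ddx5 siRNA plus stress, stress and control siRNA lay above every library of Ddx5 siRNA and control.

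The mean level of Aldh3a1 was 45.05 ± 13.18 CPM with Ddx5 siRNA plus stress, 19.09 ± 4.416 with Ddx5 siRNA, 46.86 ± 8.886 with stress, 53.93 ± 7.395 with control siRNA and 20.92 ± 8.443 in control (SD, n = 3 each). From lowest to highest the order was Ddx5 siRNA, control, Ddx5 siRNA plus stress, stress and control siRNA. The 2 lowest groups overlapped, and the 3 highest overlapped one another. Stress alone was 1.16 above control on the log2 scale (SE 0.28), and Ddx5 siRNA plus stress was 1.24 above Ddx5 siRNA (SE 0.29). Ddx5 siRNA was below control siRNA by a log2 fold change of −1.50 (SE 0.29), whereas against the control without siRNA it was −0.13 (SE 0.29). The control siRNA itself was 1.37 above that control (SE 0.29). With stress on both sides, the Ddx5 siRNA left a difference of −0.06 (SE 0.28). The difference between the Ddx5 siRNA effects with and without stress was 1.44 (SE 0.40), and that between the stress effects with and without the siRNA was 0.08 (SE 0.40). Without replicate 1 of Ddx5 siRNA, that group differed by −1.63 from control siRNA and Ddx5 siRNA plus stress by 1.37 from it, and without replicate 1 of Ddx5 siRNA plus stress that stress difference was 1.38 (SE 0.32).

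Groups that do not overlap are common in these data, also in the comparisons of the other genes below. Of all genes tested, 11.3% were higher with no overlap in stress against control, 8.72% in Ddx5 siRNA plus stress against Ddx5 siRNA and 16% in control siRNA against control. The share lower with no overlap was 15.4% in control siRNA against control, and 13.2% in Ddx5 siRNA against control siRNA. The 5 epithelial markers, examined because Aldh3a1 is a cornea gene, summed to at most 0.686 CPM in any library.

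Hmox1 (ENSRNOG00000014117, chromosome 19, 14508616 to 14515456, plus strand) was the gene with the largest stress differences among the 10. It stood at 1307, 245.8 and 272 CPM with Ddx5 siRNA plus stress, against 123, 82.58 and 66.69 CPM with Ddx5 siRNA. Stress alone gave 275.3, 337.9 and 131.1 CPM, against 75.66, 57.96 and 32.64 CPM in the control. The control siRNA libraries held 118.4, 126.1 and 145 CPM. Each stressed library lay above each library of its unstressed group, and replicate 1 of Ddx5 siRNA plus stress was 5.05 times the mean of the other 2 libraries of its group.

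The log2 fold change of Hmox1 was 2.16 for stress against control (SE 0.64, edgeR adjusted p = 0.14) and 2.75 for Ddx5 siRNA plus stress against Ddx5 siRNA (SE 0.65, edgeR adjusted p = 0.086), so neither passed in the fit of all libraries. Between libraries of the same replicate number, the log2 ratio of stress to control was 1.86, 2.54 and 2.01. That of Ddx5 siRNA plus stress to Ddx5 siRNA was 3.41, 1.57 and 2.03. In a fit of the 6 stress and control libraries alone, blocked by replicate number, which called 12.5% of all genes, stress against control gave an edgeR adjusted p of 5.9e-05 for Hmox1. With the block on all libraries it did not pass (edgeR adjusted p = 0.078). Ddx5 siRNA plus stress against Ddx5 siRNA passed with the block neither on its 6 libraries (edgeR adjusted p = 0.23) nor on all of them (edgeR adjusted p = 0.07). Without the outlying replicate 1 of Ddx5 siRNA plus stress, the stress difference with the Ddx5 siRNA was 1.51 (SE 0.42, edgeR adjusted p = 0.22). Ddx5 siRNA plus stress against stress gave 1.29 (SE 0.62, edgeR adjusted p = 0.45) with that library and 0.06 (SE 0.42) without it.

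Sod2 (ENSRNOG00000019048, chromosome 1, 47914759 to 47921587, minus strand), the mitochondrial dismutase, had the largest stress against control difference of the antioxidant genes after Hmox1. It stood at 340.7, 181.2 and 177 CPM with Ddx5 siRNA plus stress, against 220.2, 85.06 and 84.62 CPM with Ddx5 siRNA. With stress alone it reached 328.6, 222.8 and 356.6 CPM, against 170.7, 95.91 and 131.5 CPM in the control. Control siRNA libraries were the most alike, at 89.54, 89.16 and 97.77 CPM. Stress and control did not overlap, but the groups with the Ddx5 siRNA did, since its replicate 1 was 2.60 times the mean of its other libraries.

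The log2 fold change of Sod2 was 1.19 for stress against control (SE 0.39, edgeR adjusted p = 0.18) and 0.84 for Ddx5 siRNA plus stress against Ddx5 siRNA (SE 0.39, edgeR adjusted p = 0.46). Within replicate numbers, the log2 ratios were 0.95, 1.22 and 1.44 for stress to control and 0.63, 1.09 and 1.06 for Ddx5 siRNA plus stress to Ddx5 siRNA. Fitted on only the 6 libraries compared with the replicate block, edgeR adjusted p was 2.3e-06 for stress against control and 0.00035 for Ddx5 siRNA plus stress against Ddx5 siRNA (7.3% of all genes were called there). With the same block on all libraries neither passed, at edgeR adjusted p = 0.053 and 0.19, and these fits called 2.59% and 1.77% of all genes. Leaving out replicate 1 of Ddx5 siRNA moved the second fold change of Sod2 to 1.46 (SE 0.32, edgeR adjusted p = 0.061).

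Sod1 (ENSRNOG00000002115, chromosome 11, 30363280 to 30368862, plus strand), the cytosolic dismutase, was close to even under stress, with log2 fold changes of −0.04 (SE 0.14) in both stress comparisons. Ddx5 siRNA gave 173, 142.6 and 128.4 CPM, against 206.5, 200 and 207.9 CPM with the control siRNA and 178.5, 149.1 and 164.1 CPM in control. Every control siRNA library lay above every library of the other 2 groups. Ddx5 siRNA against control siRNA was −0.47 (SE 0.14, edgeR adjusted p = 0.14), and it passed without replicate 1 of Ddx5 siRNA (−0.60, SE 0.14, edgeR adjusted p = 0.031), a fit that called 4.47% of all genes. Against the control without siRNA, Ddx5 siRNA was −0.15 (SE 0.14) for Sod1. Gpx1 (ENSRNOG00000048812, chromosome 8, 117117430 to 117118522, plus strand) had log2 fold changes between −0.19 and 0.17 in the 5 comparisons of groups, with no adjusted p below 0.72.

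**Figure D2:**
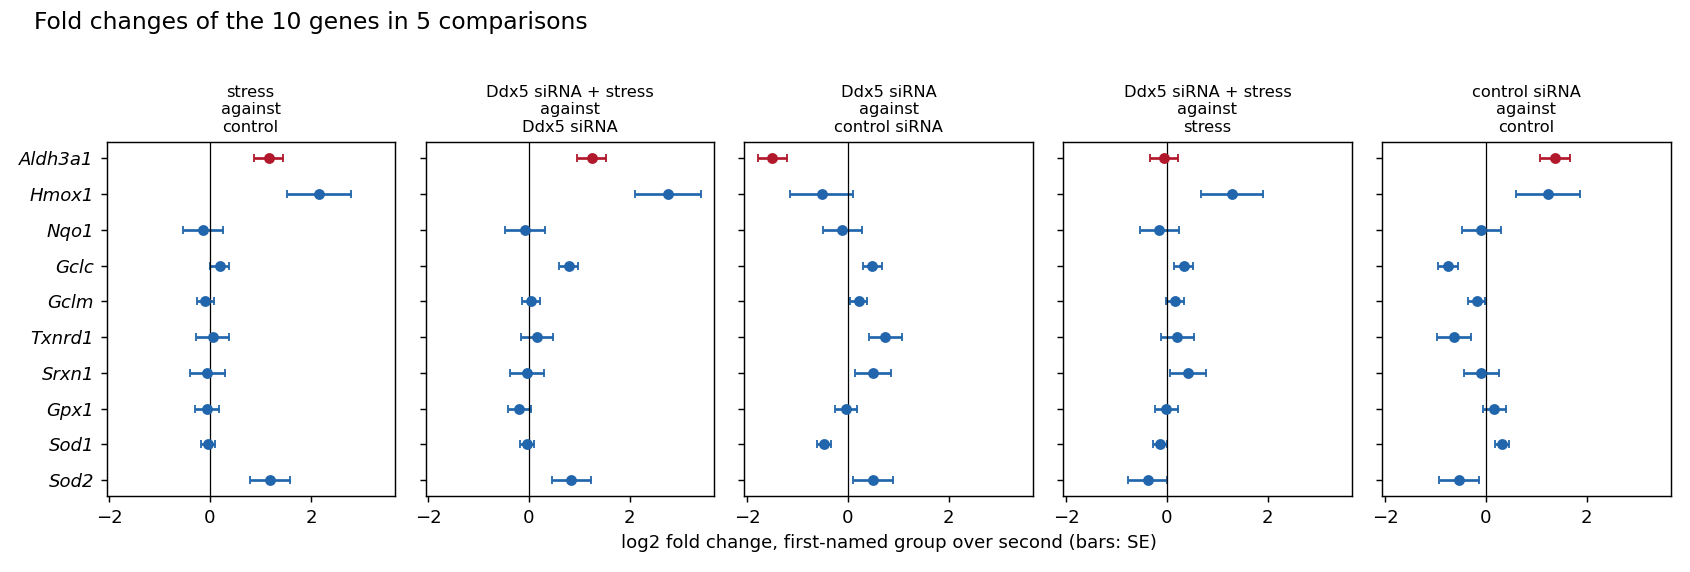
Log2 fold change of each gene (x axis, first-named group over second, bars SE, 3 libraries per group) in the 5 comparisons of groups, from edgeR; Aldh3a1 in red is shown as a description. Hmox1 and Sod2 lie right of 0 in both stress comparisons, and Nqo1, Gclm, Txnrd1, Srxn1, Gpx1 and Sod1 lie near 0 there.

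Gclc and Gclm encode the catalytic and the modifier subunit of the enzyme that limits glutathione synthesis. Gclc (ENSRNOG00000006302, chromosome 8, 85059051 to 85097468, plus strand) stood at 190.2, 157 and 190 CPM with Ddx5 siRNA plus stress, against 70.28, 121.9 and 118.9 CPM with Ddx5 siRNA. Stress gave 120.4, 160.2 and 147.7 CPM, against 104.8, 121.6 and 147.9 CPM in the control, and these 2 groups overlapped. The control siRNA libraries were at 75.17, 80.74 and 66.9 CPM, each below every control library. Gclm (ENSRNOG00000013409, chromosome 2, 225827504 to 225847874, plus strand) stayed between 14.21 and 22.35 CPM in all 15 libraries, with log2 fold changes from −0.18 to 0.21.

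Gclc with Ddx5 siRNA plus stress was 0.79 above Ddx5 siRNA on the log2 scale (SE 0.19, edgeR adjusted p = 0.061). Blocked by replicate number, it passed in the fit of all libraries (edgeR adjusted p = 0.029) and did not in the fit of the 6 libraries compared (edgeR adjusted p = 0.32). Without replicate 1 of Ddx5 siRNA, its lowest library, it was 0.57 (SE 0.15, edgeR adjusted p = 0.094). For stress against control it was 0.19 (SE 0.19, edgeR adjusted p = 0.67). The difference between both stress effects was 0.59 (SE 0.26) and did not pass (edgeR adjusted p = 1). Gclc fell with the control siRNA against control, by a log2 fold change of −0.75 (SE 0.19, edgeR adjusted p = 0.042). Ddx5 siRNA against control siRNA was 0.48 for Gclc (SE 0.19, edgeR adjusted p = 0.24), and it passed without replicate 1 of Ddx5 siRNA (0.70, SE 0.15, edgeR adjusted p = 0.022). The control siRNA call was lost when any of the 6 libraries was left out, with an edgeR adjusted p between 0.058 and 0.16.

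Nqo1, Txnrd1 and Srxn1 showed no difference past the test in any comparison and instead separated the replicate numbers. Nqo1 (ENSRNOG00000012772, chromosome 19, 38422164 to 38437180, plus strand) stood at 1049 CPM in replicate 1 of Ddx5 siRNA plus stress, against 2360 and 2526 CPM in replicates 2 and 3. Ddx5 siRNA held 1250, 2337 and 2703 CPM, stress 1484, 2458 and 2631 CPM, and control 1456, 2523 and 3280 CPM. With the control siRNA they were alike, at 2317, 2320 and 2168 CPM. In the 4 groups other than control siRNA, replicate 1 was 0.429 to 0.583 times the mean of replicates 2 and 3.

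Txnrd1 (ENSRNOG00000009088, chromosome 7, 26946125 to 26984400, minus strand) followed the same split. It stood at 239.4, 427.2 and 479.2 CPM with Ddx5 siRNA plus stress, 207.3, 367.6 and 453.9 CPM with Ddx5 siRNA, 246.1, 345 and 399.6 CPM with stress and 219.9, 321.7 and 415.9 CPM in the control. Control siRNA gave 215.3, 208.5 and 192.9 CPM, a level like that of replicate 1 in the other groups. Srxn1 (ENSRNOG00000031167, chromosome 3, 147609095 to 147632801, plus strand) was also lowest in replicate 1 of each of the 4 groups, from 8.136 CPM in control to 15.06 CPM with Ddx5 siRNA plus stress, and in the control siRNA group as well (12.21, against 16.7 and 15.9 CPM). Gpx1 ran the other way, with replicate 1 highest in all 4 groups at 1.29 to 1.56 times the mean of the other libraries.

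Such a replicate pattern was shared widely. Replicate 1 was lowest in all 4 groups for 3 of the 10 genes and for 1287 genes (9.1%) of all tested, and highest in all 4 for 1 of the 10 and for 1388 genes (9.81%). What the replicate numbers stand for is not given in the labels. The summed fibroblast markers stood at 81300 CPM in replicate 1 of Ddx5 siRNA plus stress and 81600 CPM in replicate 1 of Ddx5 siRNA, against 49400 to 58400 CPM in the other libraries of these groups. In stress and control, replicate 1 summed to 46400 and 39000 CPM, near the other libraries of its group. Most of each sum was Col1a1, and the part of these markers in the replicate pattern was not tested. Ddx5 siRNA against control siRNA gave 0.74 for Txnrd1 (SE 0.33, edgeR adjusted p = 0.31), and against the control without siRNA 0.10 (SE 0.32). Without replicate 1 of Ddx5 siRNA the first of these was 1 (SE 0.31, edgeR adjusted p = 0.086). The log2 fold changes of Nqo1 lay between −0.15 and −0.08 in the 5 comparisons of groups, with SEs of 0.39, wider than for Gclm (0.17). That of Ddx5 siRNA plus stress against Ddx5 siRNA was 0.22 without replicate 1 of Ddx5 siRNA plus stress and −0.35 without replicate 1 of Ddx5 siRNA. Nqo1 was lowest in replicate 1 of both groups, so leaving it out of 1 group alone shifts the fold change. Between libraries of the same replicate number, the log2 ratios of Nqo1 were −0.25, 0.01 and −0.1. The fit of these 6 libraries with the replicate block gave −0.12 (SE 0.06, edgeR adjusted p = 0.29).

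**Figure D3:**
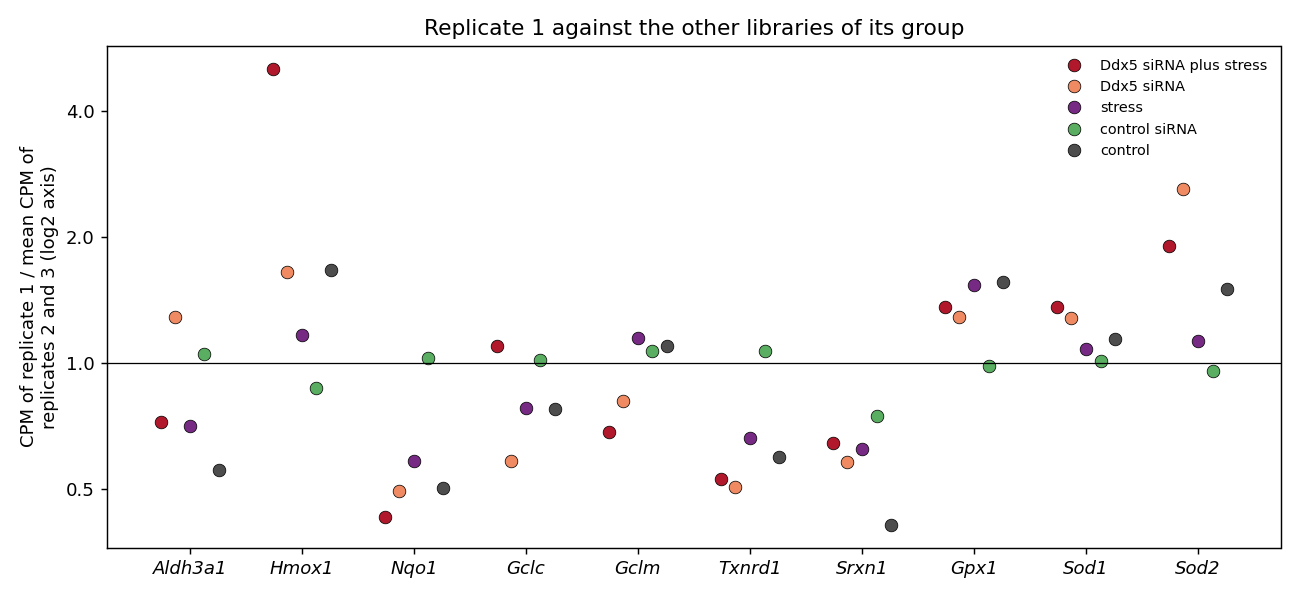
Level of each gene in replicate 1 divided by the mean of replicates 2 and 3 of the same group (y axis, log2-spaced), with 1 point per group in CPM scaled by TMM. In the 4 groups other than control siRNA, Nqo1, Txnrd1 and Srxn1 lie below 1 and Gpx1 above 1, in control siRNA Srxn1 is also below 1 (0.749), and Hmox1 reaches 5.05 in Ddx5 siRNA plus stress.

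Fitted on all libraries without the replicate block, few of the 10 genes passed the test over all genes in any comparison. None passed for stress against control (1.41% of all genes tested were called), for Ddx5 siRNA plus stress against Ddx5 siRNA (1.19%) or for Ddx5 siRNA plus stress against stress (0.0283%). In Ddx5 siRNA against control siRNA 1 gene was called, Aldh3a1 (0.396% of all genes), and in control siRNA against control 2 were, Aldh3a1 and Gclc (3.87%). Nothing is read from the calls of Aldh3a1, whose choice may rest on these contrasts. With 1 library left out, Aldh3a1 was called for Ddx5 siRNA against control siRNA only without replicate 1 of Ddx5 siRNA, and for control siRNA against control only without replicate 3 of either group. For the 2 differences between effects, edgeR called none of the 10 and 0 genes in all (0%). At an unadjusted p under 0.05 edgeR counted 441 genes (3.12%) for the stress effects and 1179 (8.33%) for the Ddx5 siRNA effects. DESeq2 called 4 and 116. Replicate numbers were taken to pair both stress comparisons. With the replicate block on only the groups compared, Hmox1 and Sod2 passed for stress against control (edgeR adjusted p = 5.9e-05 and 2.3e-06). For Ddx5 siRNA plus stress against Ddx5 siRNA, Sod2 passed there (edgeR adjusted p = 0.00035) and Hmox1 did not (edgeR adjusted p = 0.23). With the block on all libraries neither passed, and Gclc passed for Ddx5 siRNA plus stress against Ddx5 siRNA (edgeR adjusted p = 0.029).

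The wider NRF2 system was read from gene lists. None of the 9 tested genes of the list of NRF2 and its regulators, which holds Nfe2l2 itself, was called in any of the 7 comparisons, where 0% to 3.87% of all genes were called. Nfe2l2 averaged 286.5 ± 18.51 CPM with stress and 267.7 ± 17.49 CPM in control (SD, n = 3 each), a log2 fold change of 0.10 (SE 0.13, edgeR adjusted p = 0.79). With Ddx5 siRNA plus stress it averaged 264.9 ± 53.09 CPM, against 237.4 ± 30.38 CPM with Ddx5 siRNA (0.16, SE 0.13). Keap1 gave 0.11 (SE 0.09) for stress against control and −0.26 (SE 0.09, edgeR adjusted p = 0.29) for Ddx5 siRNA plus stress against stress.

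Most called genes of the redox lists were called in control siRNA against control, the comparison with the most calls over all genes. There, 2.1% of all genes tested were called higher and 1.77% lower. Of 17 tested glutathione genes 3 rose and none fell, with a list median of 0.06 beside −0.00317 for all genes tested. They were Gpx7 (0.58, SE 0.11), the cystine transporter Slc7a11 (1.72, SE 0.35) and the glutathione-degrading enzyme Chac1 (1.39, SE 0.33). Slc7a11 averaged 15 ± 1.51 CPM in control siRNA libraries and 4.566 ± 2.458 CPM in control libraries (SD, n = 3 each; edgeR adjusted p = 0.016), while stress against control gave 0.08 (SE 0.35).

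Of 12 thioredoxin-system genes 3 rose with the control siRNA (2.1% of all genes) and none fell (1.77%). All 12 had a positive log2 fold change (median 0.21, beside −0.00317 for all genes tested). Sesn2, a stress-induced regulator of peroxiredoxins and of mTORC1, averaged 199.7 ± 20.91 CPM under the control siRNA, against 90.79 ± 13.51 CPM in control (SD, n = 3 each; log2 fold change 1.14, SE 0.16, edgeR adjusted p = 0.0015). The mitochondrial peroxiredoxin Prdx3 rose by 0.76 (SE 0.11) and Prdx6 by 0.39 (SE 0.08). None of the 12 was called for Ddx5 siRNA against control siRNA, where all 12 fold changes were negative (median −0.26, beside 0.00724 for all genes tested). The 2 comparisons share the control siRNA libraries.

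With the control siRNA 2 of 8 haem and iron genes also rose, the haem transporter Slc48a1 (0.61, SE 0.10) and biliverdin reductase Blvrb (0.85, SE 0.19), as did the mitochondrial NADPH source Idh2 (0.68, SE 0.16) among 8 NADPH genes. Over all genes tested, 2.1% were called higher in this comparison and 1.77% lower. Of 14 other aldehyde dehydrogenases, Aldh1l2 (1.71, SE 0.29) and Aldh7a1 (0.54, SE 0.14) rose and none fell. Of these, 13 had a positive fold change (median 0.56, beside −0.00317 for all genes tested). Ugdh, which makes UDP-glucuronate, fell by 0.57 (SE 0.15) and was the only called gene among 11 other detoxifying enzymes. None of the 10 tested genes for other superoxide and peroxide removal, the 3 metallothionein rows and the 7 oxidant-producing enzymes was called in any comparison. All 3 metallothionein rows had positive fold changes for stress against control (median 1.59) and for Ddx5 siRNA plus stress against Ddx5 siRNA (median 2.88). The lowest edgeR adjusted p was 0.39 and 0.17. Replicate 1 of Ddx5 siRNA plus stress stood far above its other libraries, as at 175.8 against 18.05 and 17.77 CPM in 1 Mt1 row. Fibroblast markers moved with control siRNA against control. The 8 genes summed to 72600 to 87400 CPM in control siRNA libraries, against 39000 to 44400 CPM in control libraries. Most of each sum was Col1a1, which averaged 48200 CPM over all libraries, against 5.16 CPM for Dcn and 4.66 CPM for Lum. A shift in cell types cannot be read from this sum. The part of these markers in the calls of control siRNA against control was not tested. The calls of Slc7a11, Gpx7, Chac1, Prdx6, Blvrb, Idh2, Aldh7a1 and Ugdh were lost when at least 1 library was left out, and those of Sesn2, Prdx3, Slc48a1 and Aldh1l2 were kept in all 6 such fits.

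The AHR list was the only one of the 11 gene lists with called members in a stress comparison. Of its 7 tested genes, 2 rose and 1 fell for stress against control, 1 rose for Ddx5 siRNA plus stress against Ddx5 siRNA, and 1 rose and 1 fell for control siRNA against control. The share of all genes called in either direction was 1.41%, 1.19% and 3.87% in these 3 comparisons. Cyp1b1 stood at 493, 762.1 and 855.3 CPM with Ddx5 siRNA plus stress, against 371.3, 198.7 and 234.4 CPM with Ddx5 siRNA. Stress alone gave 703.9, 846.8 and 736.3 CPM, against 240.2, 215.2 and 275.2 CPM in control, and the control siRNA libraries held 308.5, 311.7 and 246.1 CPM. Both pairs of stressed and unstressed groups were apart in every library.

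Cyp1b1 rose by 1.65 on the log2 scale with stress against control (SE 0.23, edgeR adjusted p = 0.0023) and by 1.39 with Ddx5 siRNA plus stress against Ddx5 siRNA (SE 0.23, edgeR adjusted p = 0.0079). Without replicate 1 of Ddx5 siRNA the second value was 1.70 (SE 0.21), and without replicate 1 of Ddx5 siRNA plus stress 1.59 (SE 0.21). The second call was lost without replicate 3 of Ddx5 siRNA (edgeR adjusted p = 0.056), and also when the 6 libraries compared were fitted alone (edgeR adjusted p = 0.22, and 0.33 with the replicate block). Cyp1b1 did not pass for control siRNA against control (0.25, SE 0.23, edgeR adjusted p = 0.57) or for Ddx5 siRNA against control siRNA (−0.11, SE 0.23).

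Ahrr, the receptor's repressor, stood at 15.45, 17.15 and 15.49 CPM with Ddx5 siRNA plus stress, 20.43, 10.31 and 10.81 CPM with Ddx5 siRNA and 17.43, 20.49 and 19.03 CPM with stress. The control siRNA libraries reached 28.15, 28.03 and 22.46 CPM and the control libraries 5.642, 9.228 and 10.96 CPM. Ahrr rose with stress against control (1.14, SE 0.25, edgeR adjusted p = 0.04) and with control siRNA against control (1.61, SE 0.26, edgeR adjusted p = 0.0037). The stress call was lost when any of 5 of the 6 libraries was left out, and held without control replicate 3. Ahr ran opposite, at 23.7, 23.98 and 29.8 CPM with stress and 26.97, 27.08 and 24.97 CPM with the control siRNA, against 50.66, 51.4 and 52.04 CPM in control. It fell by 0.99 on the log2 scale with stress (SE 0.22, edgeR adjusted p = 0.037) and by 0.96 with the control siRNA (SE 0.22, edgeR adjusted p = 0.026). Each of these 2 calls was lost when any 1 library was left out, with an edgeR adjusted p from 0.051 to 0.16 and from 0.055 to 0.11.

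Cyp1a1 stood at 2.803, 10.02 and 6.575 CPM with Ddx5 siRNA plus stress, against 1.19, 0.3725 and 0.1875 CPM with Ddx5 siRNA. It had 2.011, 8.657 and 0.819 CPM with stress and 7.837, 6.389 and 4.836 CPM with the control siRNA, against 0, 0.9747 and 0.1797 CPM in control. The count of 0 allows a level of up to 0.178 CPM, for 3 counts. The groups that were high and low for Aldh3a1 were also high and low by mean for Cyp1a1, although stress overlapped with control. No comparison of Cyp1a1 passed the test, and the nearest was control siRNA against control (edgeR adjusted p = 0.06).

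**Figure D4:**
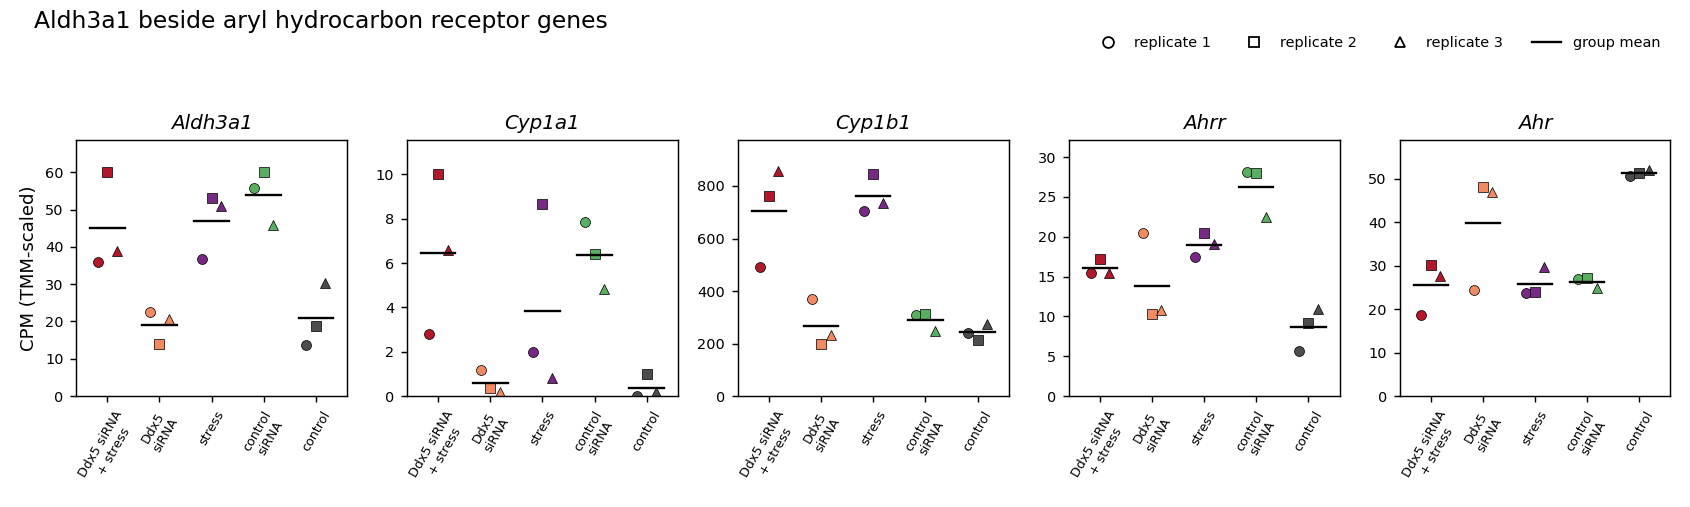
Level of Aldh3a1 and of 4 genes of the aryl hydrocarbon receptor pathway in every library, in CPM scaled by TMM (y axis, from 0) for the 5 groups (x axis); symbols give the replicate number and bars the mean of 3 libraries. Cyp1b1 is high in both stressed groups, Ahrr is highest in control siRNA, Cyp1a1 is low in Ddx5 siRNA and control, and Ahr stands at 50.66 to 52.04 CPM in control.

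Genes whose pattern over the 15 libraries was most like that of Aldh3a1 were ranked by Pearson's r of log2 CPM among 10894 genes, given as a description with no test. The first was Lrrc8d, a subunit of volume-regulated anion channels (r = 0.896, Spearman's rho = 0.95, and r = 0.849 without the 2 libraries farthest from the median of Aldh3a1). Bin1 (0.851), Ahrr (0.84), Arhgap10 (0.833) and Cyp1a1 (0.828) came next by r. Without those 2 libraries their r lay between 0.746 and 0.777. Lrrc8d stood at 35.91, 50.29 and 41.98 CPM with Ddx5 siRNA plus stress, 36.83, 29.86 and 33.25 CPM with Ddx5 siRNA, 44.11, 47.7 and 37.48 CPM with stress, 47.74, 49.15 and 46.43 CPM with the control siRNA and 27.79, 29.44 and 30.54 CPM in control. These points share 5 groups and the replicate numbers, so they are not 15 independent conditions.

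For Hmox1 the closest were Gch1, the first enzyme of tetrahydrobiopterin synthesis (r = 0.963, rho = 0.911), Xylb (r = 0.957), the endoplasmic reticulum oxidase Ero1l (r = 0.952), Ppp1r3b (r = 0.949) and the glycogen phosphorylase Pygl (r = 0.941). Without replicate 1 of Ddx5 siRNA plus stress and replicate 3 of control, the r of these 5 lay between 0.879 and 0.927. Gch1 was at 32.2 CPM in replicate 1 of Ddx5 siRNA plus stress, against 9.263 and 13.91 CPM in its replicates 2 and 3. The library that stood highest for Hmox1 was therefore also highest for Gch1.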

How the data were processed

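RNA-seq of total RNA was deposited for 15 libraries. The authors deposited raw read counts per gene and FPKM values for each library. Not given in the sources used here are the aligner, counting tool, strand setting, genome build and annotation. Reads of overlapping genes or close copies may therefore be shared. A deposited FPKM is the count over gene length, times a constant of that library (relative deviation at most 5.1e-15), and these constants follow median-of-ratios size factors. FPKM serve here only to set levels of different genes side by side.

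Of 33717 loci, 12068 had no count. filterByExpr by group left 14147. All 15 libraries were fitted together in R 4.3.3 with edgeR 4.0.16 (TMM, quasi-likelihood F test with robust estimation, common biological coefficient of variation 0.217) for 7 comparisons. Benjamini-Hochberg adjustment ran over all genes tested, and calls needed an adjusted p under 0.05. Each SE is the fold change over the root of F. CPM use TMM-scaled totals. A count of 0 was taken to allow up to 3 counts, which covers counting error only. The fit was run on simulated data for stress against control only. These were drawn without a replicate effect, so that run cannot show how the fit handles the replicate pattern.

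The members, the 11 gene lists (130 symbols, 120 matched, 3 by older symbols) and the tests were chosen with earlier results of these data known. Named were the 10 members, 5 preset genes (Nfe2l2, Keap1, Ahr, Cyp1b1 and Slc7a11), from each list up to 3 called genes, lowest adjusted p first, and the 5 genes most like Aldh3a1 and like Hmox1 by Pearson's r of log2 CPM (prior count 3, mean of at least 2 CPM in the highest group). Cyp1a1 in the comparisons was named after its values were seen.

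Same-numbered libraries deviated together for stress against control (correlations 0.27 to 0.40) and for Ddx5 siRNA plus stress against Ddx5 siRNA (0.25 to 0.59). The numbers were therefore taken to pair these, and not in the other comparisons. Lower but positive correlations were also seen for Ddx5 siRNA plus stress against stress (0.05 to 0.31) and control siRNA against control (0.07 to 0.09). No 2 libraries agreed within sampling noise (chi-square per degree of freedom 7.75 or more). Alternatives were RLE scaling, no filter, DESeq2 1.42.0, the replicate block, only the groups compared, leaving out each library, and control without siRNA as the reference for the Ddx5 siRNA.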

Additional observations from a re-analysis of the deposited data

How the results depend on the processing

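No called log2 fold change of the 10 genes reversed its direction under the alternatives run. Of 970 alternative values of these fold changes, 16 came to pass, 19 ceased to pass, and 23 that passed in neither fit moved by more than 1 SE. The other 912 stayed on their side of the threshold, and those not called stayed within 1 SE. How many of the 10 genes were called did depend on the setting. Calls of Aldh3a1 are listed only to complete these counts, and nothing is read from them. The counts over all genes, where they moved with the setting, follow in the next paragraph. For stress against control it was 0 in the fit of all libraries, which called 1.41% of all genes, and 2 with DESeq2 (Aldh3a1 and Hmox1). It was 3 in the fit of only those 6 libraries with the replicate block (Aldh3a1, Hmox1 and Sod2), which called 12.5% of all genes. When 1 library was left out it was 0 to 1. For Ddx5 siRNA plus stress against Ddx5 siRNA it was 0 (1.19% of all genes), against 3 with DESeq2 (Aldh3a1, Hmox1 and Gclc). It was 1 with the replicate block (Gclc, 1.77% of all genes) and 1 in the 6-library fit with the block (Sod2, 7.3% of all genes). With 1 library left out it was 0 to 1. For Ddx5 siRNA against control siRNA it was 1 (Aldh3a1, with 0.396% of all genes called). It was 0 with no filter on low counts, 2 with the replicate block, 0 in the 6-library fit with the block and 0 to 3 with 1 library left out. For control siRNA against control it was 2 (3.87% of all genes), against 1 in the 6-library fit with the block and 0 to 1 with 1 library left out. For the difference between the Ddx5 siRNA effects DESeq2 called 1 (Aldh3a1) and edgeR 0. Set against the control without siRNA, Ddx5 siRNA gave −0.27 for Gclc, 0.71 for Hmox1 and −0.03 for Sod2, in place of 0.48, −0.52 and 0.50 against control siRNA. The cause of these shifts was not tested.

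Calls over all genes moved more. Stress against control had 199, against 537 with DESeq2, 366 with the replicate block, 1683 in the 6-library fit with the block (55.9% of them higher, against 75.4%) and 81 to 157 with 1 library left out. Ddx5 siRNA plus stress against Ddx5 siRNA had 169, against 366 with DESeq2, 23 in the 6-library fit, 985 with its block (65.1% higher, against 88.2%) and 61 to 187 with 1 library left out, at most 71 of them where the count moved beyond 1.5 times. Ddx5 siRNA against control siRNA had 56, against 363 with DESeq2, 417 with the replicate block (43.4% higher, against 58.9%), 0 in the 6-library fit with the block, 645 without replicate 1 of Ddx5 siRNA and 1 to 2 without any of the other 5 libraries. Ddx5 siRNA plus stress against stress had 4 (25% higher), against 18 with RLE scaling (44.4% higher), 16 with no filter, 152 with DESeq2, 30 with the replicate block, 0 in the 6-library fit, 1 with its block and 0 to 7 with 1 library left out. Control siRNA against control had 547, against 1062 with DESeq2, 1173 with the replicate block, 1394 in the 6-library fit, 1570 with its block and 166 to 392 with 1 library left out, of which the 5 that moved beyond 1.5 times gave 166 to 206. The difference between the Ddx5 siRNA effects had 0, against 116 with DESeq2, 26 with the replicate block, 11 in the fit of only the groups compared with the block and 0 to 44 with 1 library left out. The difference between the stress effects had 0, against 4 with DESeq2 and 0 to 2 with 1 library left out. RLE scaling moved the median log2 fold change of all genes by at most 0.015 in either direction. The replicate numbers were taken to pair libraries only in the first 2 of these comparisons (correlations of −0.18 to 0.31 in the others), so a call gained or lost under the block elsewhere says little. With 3 libraries per group and no replicate block, the SE limited what could pass for stress against control, as for Nqo1 (0.39) and Hmox1 (0.64). In the 6-library fit with the block, also with 3 libraries per group, these SEs were 0.07 and 0.13. With the block on all libraries they were 0.21 and 0.54.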
